A study of Mus musculus with 12 samples.

Results

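The cytosolic ribosomal protein genes of mouse liver were followed across control livers and 2 kinds of liver tumor. Members were the rows whose mouse symbol begins with Rpl or Rps and a digit, or is Rplp0, Rplp1, Rplp2 or Rpsa, without the S6 kinases, Rps19bp1 and symbols that contain -ps or -rs. This rule gave 92 of the 26301 rows in the count table, of which 52 were Rpl, 37 were Rps including Rpsa, and 3 were Rplp. Of these, 88 were protein coding in RefSeq and 4 were classed as pseudogenes of some kind (Rpl6l, Rps3a2, Rps3a3 and Rps4l). The 3 paralogs Rpl3l, Rpl10l and Rpl39l had between 0 and 5 counts in any library and did not pass the filter on low counts, so 89 members were tested.

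RNA was sequenced from 12 libraries. The 4 control libraries were non-tumor livers of wild-type mice, the 4 DKO libraries were spontaneous liver tumors of mice with Alb-Cre deletion of E2f7 and E2f8, and the 4 TKO libraries were spontaneous liver tumors of mice with Alb-Cre deletion of Rb1, E2f7 and E2f8. All mice were labelled adult, had been bred into the FVB strain, and belonged to a study of ageing animals, with no exact ages given in the sources used here. Alb-Cre is driven by the albumin promoter and acts in hepatocytes, so other cells of a tumor piece keep the genes. Tumor and genotype went together in both tumor groups, and no non-tumor liver of either deletion was analysed here, so the effect of the deletion and that of being a tumor cannot be told apart. Each library was a bulk tissue piece, in which fewer cells of a type and less RNA per cell cannot be told apart.

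A cytosolic ribosome holds a small subunit, built on 18S rRNA with the Rps proteins, and a large subunit, built on the 28S, 5.8S and 5S rRNAs with the Rpl proteins and the P stalk that recruits translation factors. The mRNAs of these proteins are abundant and short, and many begin with a terminal oligopyrimidine (TOP) tract, a C followed by a run of C and T at the cap, through which mTORC1 and LARP1 control their translation. Their genes also left many processed pseudogenes in the mammalian genome. Hepatocytes, which secrete most plasma proteins, are rich in ribosomes.

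The transcription starts of 6 picked members are shown because their first bases differ. RefSeq promoter sequences of GRCm38.p6 were available for 68 of the 92 members. None was available for Rps4l, which had the largest change of any member in DKO tumors, or for Rps29. All of the 6 except Rpl37a begin with C and a run of pyrimidines, so they do not stand for the 68, whose shares are given below. In each line the 40 bases before the start and the first 15 bases of the transcript are given 5′ to 3′, and capitals mark the unbroken run of pyrimidines (C or T) that begins at the first transcribed base.
Rps18, chr17:33955651-33955705, minus strand: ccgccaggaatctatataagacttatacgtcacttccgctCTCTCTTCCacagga
Rps10, chr17:27635230-27635284, minus strand: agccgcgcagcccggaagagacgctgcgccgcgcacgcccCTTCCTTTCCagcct
Rpl14, chr9:120571477-120571531, plus strand: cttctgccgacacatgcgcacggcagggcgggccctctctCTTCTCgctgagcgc
Rps27, chr3:90213634-90213688, minus strand: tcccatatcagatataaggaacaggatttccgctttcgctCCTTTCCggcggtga
Rps27rt, chr9:114982725-114982779, minus strand: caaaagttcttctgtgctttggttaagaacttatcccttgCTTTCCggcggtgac
Rpl37a, chr1:72711220-72711274, plus strand: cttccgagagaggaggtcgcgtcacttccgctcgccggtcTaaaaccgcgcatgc

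Of the 68 members, 24 (35.3%) had C as the annotated first base, against 16.2% of all 27025 promoters with a sequence. A C followed by pyrimidines for at least 5 bases in all was found in 14 members (20.6%) and in 2.48% of all promoters. The motif CTTTC was found on either strand between 10 bases before and 15 bases from the start in 17 of the 68 members, against 5.91% of all promoters, and it can lie within the pyrimidine tract. The motif CCGGAAG, a core of ETS factor sites, was found on either strand within the 300 bases in 25 members (36.8%), against 9.14% of all promoters. Annotated starts can miss the base most used in liver, so these shares describe the annotation. The 14 members with such a tract had a median log2 fold change of −0.55 between DKO tumors and controls, with 13 of 14 lower, and the other members with a promoter had a median of −0.29, with 44 of 51 tested lower. Those of the 14 with a gene model were all short, from 344 bases (Rps27rt) to 946 (Rpl35), while the others included long ones such as Rpl24, at 4999. Rps27 and Rps27rt, whose counts cannot be separated, are both among the 14. The part of the tract apart from length was not tested.

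The libraries held between 9165812 and 16424973 counts. The markers of the labelled tissue were present in all libraries, with the 6 hepatocyte genes summing to between 59616 and 322226 CPM, with library sizes scaled by TMM, the normalization of edgeR. The summed markers of every other cell type were lower, at 13.9 to 1516 CPM, and no marker was at 0 in every library. Rb1 was at 3.21 to 5.47 CPM in TKO tumors, below the 6.52 to 10.7 CPM of controls and the 7.99 to 11.3 CPM of DKO tumors. E2f7 overlapped among the groups and E2f8 was at 7.59 to 45.6 CPM in DKO tumors and 12.3 to 52.2 CPM in TKO tumors, against 4.52 to 8.97 CPM in controls. These are counts over whole genes, and which exons were deleted was not examined, so the counts of E2f7 and E2f8 check nothing.

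The 92 members together took under 1% of the counts in every library. They made up 0.454%, 0.500%, 0.450% and 0.411% of the counts in control livers 1 to 4. In DKO tumors the share was 0.339%, 0.386%, 0.405% and 0.487%, and in TKO tumors it was 0.504%, 0.500%, 0.492% and 0.553%. The DKO mean of 0.404% ± 0.062 (SD, n = 4) differed from the control mean of 0.454% ± 0.036 (SD, n = 4) by less than the SD of the DKO tumors, and the TKO mean was 0.512% ± 0.028 (SD, n = 4). The 4 TKO libraries lay above all 4 DKO libraries, and control liver 2 overlapped with the TKO range. Albumin alone took 11.9% to 22.7% of the counts in DKO tumors against 6.57% to 10.1% in controls. With the 20 most counted other rows taken out of the total, the DKO minus control difference turned from −0.049 to 0.023 percentage points. Rows with -ps or -rs symbols, which can hold reads of the members, took 0.065% to 0.103% of the counts.

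**Figure D1:**
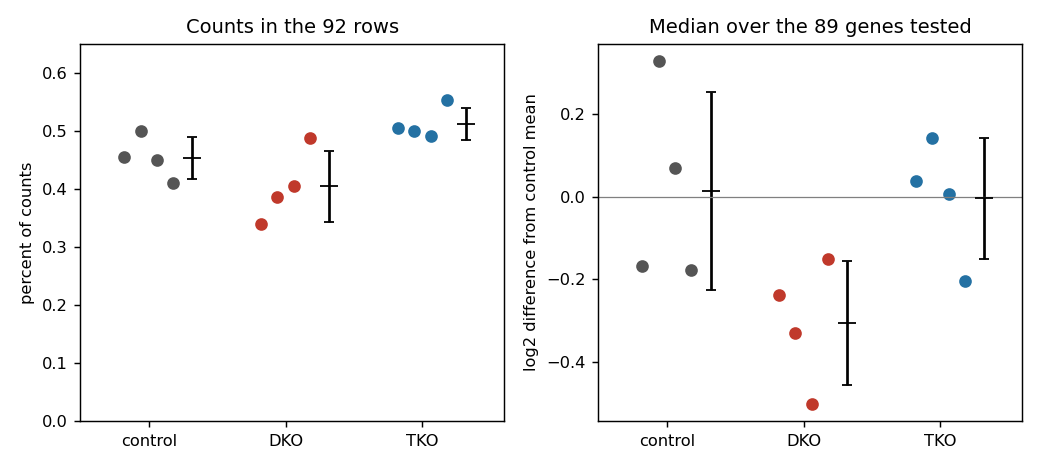
Left, percent of each library's counts in the 92 ribosomal protein rows. Right, the median over the 89 tested genes of the log2 difference in TMM-scaled CPM from the mean of the control livers. Points are libraries, and the bar beside them is the mean with its SD (n = 4). Control liver 2 is the highest point of the right panel, at 0.33, and DKO tumor 3 the lowest, at −0.50.

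Few positions within these genes can be told apart by a short read. Reads were 40 bases long, and a median of 26.97% of the 40-base windows of a member's transcript occurred once in mm9 and within an exon, over the 89 members with a gene model there, against 83.6% over all 13095 tested genes with a model. Fewer than 10% of the windows were unique in 20 members. Rps23 and Rps28 were among those in which no window was unique. Rps27 and Rps27rt shared 302 windows, 98.7% of those of Rps27, so their counts cannot be separated. Rpl37 and Rpl37rt shared 265 windows, 41.1% of those of Rpl37rt, Rps23 and Rps23rg1 shared 299 (65.6% and 18.9%), and Rps3a1, Rps3a2 and Rps3a3 shared 472 to 613 for each pair. How reads with several places were counted is not given in the sources used here, so the levels of such members are uncertain, and the part of this in the small share of counts was not tested.

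Levels differed widely among the members, most of which encode proteins that a ribosome holds in equal number. Per kilobase of gene model, averaged over the 12 libraries, Rpl4 was highest at 255.9 CPM, followed by Rps14 at 187, Rpl22 at 185, Rpl8 at 181 and Rpl32 at 165. The lowest tested members were Rps23rg1 at 0.951 CPM per kilobase and the pseudogene row Rps4l at 1.71. Among core proteins, Rpl29 was at 2.47 CPM per kilobase, and only 11.2% of its windows were unique. Over the 89 members with a model, the log2 level per kilobase and the unique share had a Pearson r of −0.33 and a Spearman rho of −0.12, a description over genes that share libraries and paralogs. The P stalk genes Rplp0, Rplp1 and Rplp2 were at 92.3, 157 and 51.0 CPM per kilobase.

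**Figure D2:**
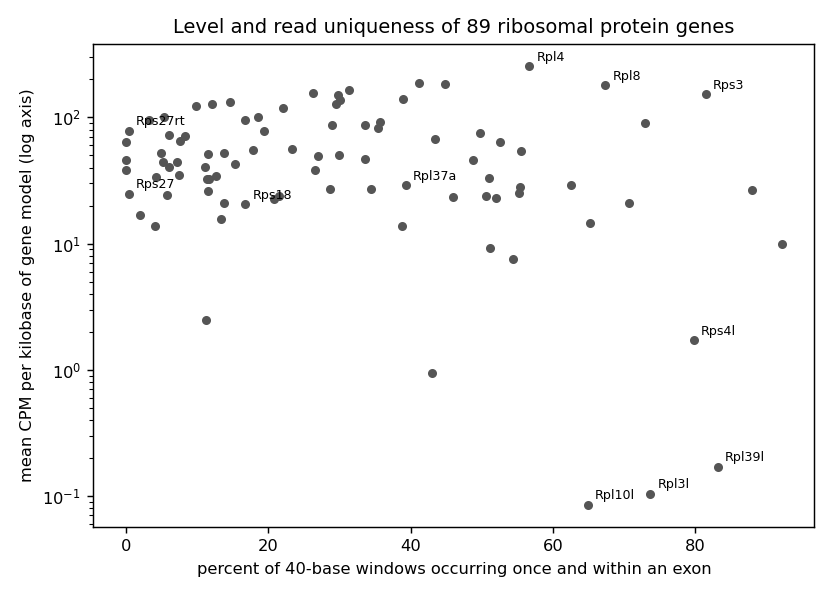
Mean CPM per kilobase of gene model (log axis) against the percent of 40-base windows that occur once in the genome and within an exon, for the 89 members with a gene model. Each point is a gene. Most members lie below 50% unique (67 of 89), and the near-silent paralogs Rpl10l, Rpl3l and Rpl39l lie at the bottom although over 60% of their windows are unique.

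DKO tumors were set against control livers to see how ribosomal protein mRNAs stood in tumors that lack both atypical E2Fs. Of the 89 tested members, 3 fell at an adjusted p under 0.05 (edgeR quasi-likelihood test with Benjamini-Hochberg adjustment over all 13882 genes tested) and none rose. Over all genes tested, 1.01% were called lower and 1.41% higher. A lower mean was seen in 81 of 89 members (91.0%), against 48.4% of all genes tested, and the median log2 fold change of the members was −0.30, against 0.02 over all genes tested. An unadjusted p under 0.05 with a lower mean was reached by 30 members, against 11.1% of all genes tested, and none with a higher mean, against 12.9%. Without each of control livers 2, 3 and 4 and DKO tumors 1, 2 and 4 in turn no member was called, and the median of the members then ranged from −0.39 to −0.21. Control liver 2 gave the smallest of these shifts when left out, −0.21 with 77 of 89 members lower.

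The first member called was Rps18, a small subunit protein of the ribosome head. It stood at 12.5, 17.1, 17.96 and 15.2 CPM in control livers, 9.12, 6.17, 7.28 and 9.32 CPM in DKO tumors, and 15.8, 14.9, 11.05 and 11.04 CPM in TKO tumors. All 4 DKO values lay below all control values, and the TKO values overlapped with the controls. The DKO to control log2 fold change was −0.97 (SE 0.19), with an adjusted p of 0.0409 by edgeR, and it ranged from −1.07 to −0.77 over the alternatives tried. Its gene lies on chromosome 17 of mm9, 34088944 to 34092946 on the minus strand, in 5 exons, and 16.8% of its windows were unique.

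Rpl37a encodes a large subunit protein with a zinc finger, on chromosome 1 at 72757834 to 72760383, plus strand. Its level was 17.6, 25.3, 18.03 and 18.5 CPM in control livers and 13.8, 12.6, 10.9 and 10.4 CPM in DKO tumors, and 23.5, 18.3, 20.4 and 14.99 CPM in TKO tumors. No DKO value reached the lowest control. The log2 fold change was −0.73 (SE 0.17), with an adjusted p of 0.0488 by edgeR, and the adjusted p was between 0.00623 and 0.145 over the alternatives.

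Rps4l, a row that RefSeq classes as a transcribed pseudogene related to Rps4x, had the largest change of any member. It stood at 2.74, 3.44, 3.25 and 2.86 CPM in control livers, 0.307, 0.870, 1.01 and 0.236 CPM in DKO tumors and 0.844, 1.28, 1.61 and 0.895 CPM in TKO tumors. Both tumor groups lay wholly below the controls. The log2 fold change in DKO tumors was −2.33 (SE 0.43), with an adjusted p of 0.0366 by edgeR. It rested on 4 to 48 counts per library. Its model, chromosome 6 at 148303178 to 148304120 in a single exon, was 79.8% unique, while Rps4x, its expressed relative, had 9.83% unique windows and a log2 fold change of 0.09 with an adjusted p of 0.811 by edgeR.

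**Figure D3:**
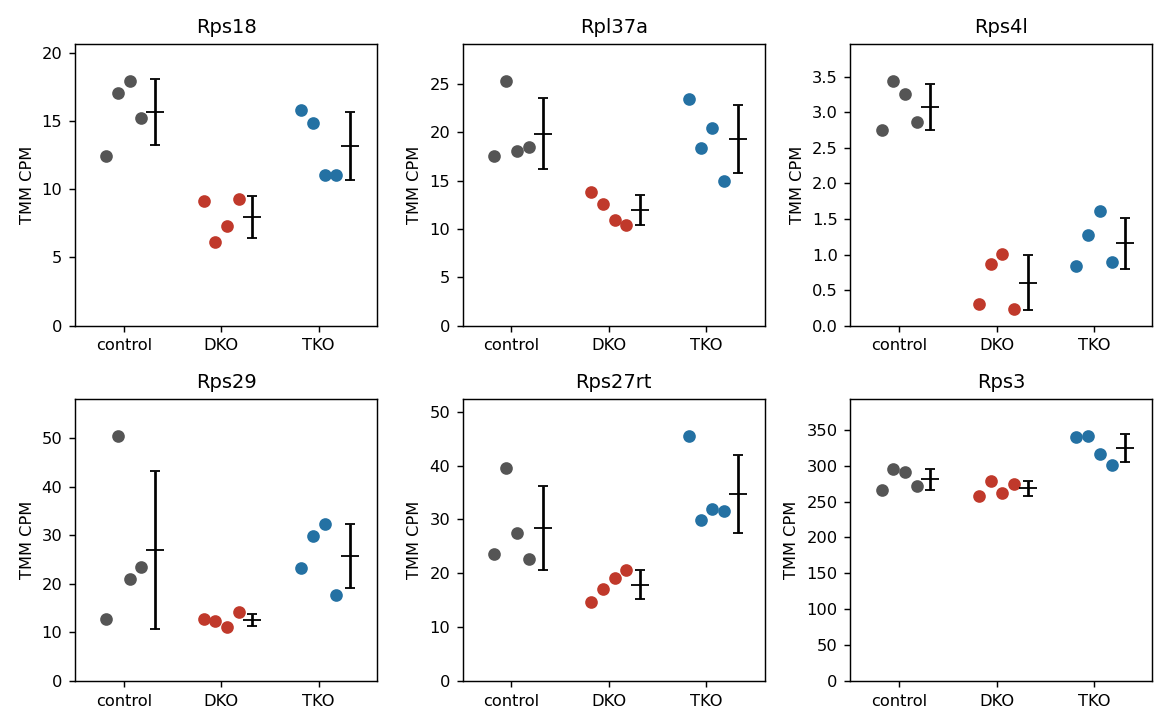
TMM-scaled CPM of 6 members in each library, with the mean and SD of each group (n = 4) beside the points and each axis starting at 0. Rps18, Rpl37a and Rps4l have DKO values below every control, Rps29 has 1 control at 50.4 CPM, and Rps3 has TKO values of 301 to 342 CPM above every other library.

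The members next in order of p did not pass the test. Rps29 stood at 12.8, 50.4, 20.9 and 23.4 CPM in control livers and at 12.7, 12.4, 11.2 and 14.2 CPM in DKO tumors, with a log2 fold change of −1.08 (SE 0.34) and an adjusted p of 0.0879 by edgeR. Control liver 2 was the high value, and the lowest control overlapped the DKO tumors. Rps10 was at −0.62 (adjusted p 0.0792 by edgeR) and Rps27rt at −0.66 (adjusted p 0.0846 by edgeR), both with DKO values below every control. DESeq2 called 7 members lower in DKO tumors, namely Rpl14, Rpl37a, Rps10, Rps18, Rps27rt, Rps29 and Rps4l, where 4.51% of the genes with an adjusted p were called lower. The highest members were Rps15a, with a log2 fold change of 0.29 (95% interval −0.15 to 0.74), and Rps24, with 0.15 (−0.12 to 0.43).

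The small subunit members had a median log2 fold change of −0.40 (32 of 37 lower) and the large subunit members one of −0.29 (46 of 49 lower). The stalk genes Rplp0, Rplp1 and Rplp2 had values of −0.14, −0.16 and −0.19. Rpsa, the laminin receptor protein of the small subunit, was at −0.57 (adjusted p 0.117 by edgeR), Rps19, a small subunit protein mutated in Diamond-Blackfan anemia, at −0.50 (adjusted p 0.141 by edgeR), and Rps6, the target of the S6 kinases, at −0.16 (adjusted p 0.674 by edgeR). Rpl5 and Rpl11, which with 5S rRNA bind MDM2, were at −0.09 and −0.36, neither past the test. Rpl13a, which joins the GAIT complex, was at −0.72 (adjusted p 0.167 by edgeR). Rpl10, close to the peptidyl transferase centre, was at −0.09 and the smallest protein, Rpl41, at 0.05. The paralog Rps27l, a p53 target, was at −0.58 (adjusted p 0.0933 by edgeR), while Rpl22l1 and Rpl22 were at −0.005 and −0.25, Rpl36al and Rpl36a at −0.49 and −0.19, and Rpl7l1 at 0.14.

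Gene length moved with this shift. Genes other than the members with a model under 1000 bases were lower in DKO tumors in 69.0% of 1226 cases, with a median log2 fold change of −0.23, while those of 1000 bases or more were lower in 45.3% of 11783, with a median of 0.05. The 68 members under 1000 bases had a median of −0.36 and the 18 longer ones a median of −0.15. Calls moved with length too. Of the 1226 short other genes, edgeR called 52 lower and 8 higher, and DESeq2 called 144 lower and 36 higher. At an unadjusted p under 0.05 by edgeR, 323 of them were lower and 73 higher. Of the 68 short members, 3 were called lower by edgeR and 7 by DESeq2, and 26 were lower at an unadjusted p under 0.05 by edgeR, with 0 higher in each case. With the groups not overlapping and DKO lower stood 12 of 89 members, 13.5%, against 7.30% of all genes tested and 15.5% of the short other genes. None stood apart in the other direction, against 8.87% of all genes tested. When length and GC content entered as offsets, 63 of 86 members were lower, the median became −0.16 against −0.04 over all genes, and Rps18 and Rps4l were called. The part of transcript length in the lower values was not tested apart from this offset.

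**Figure D4:**
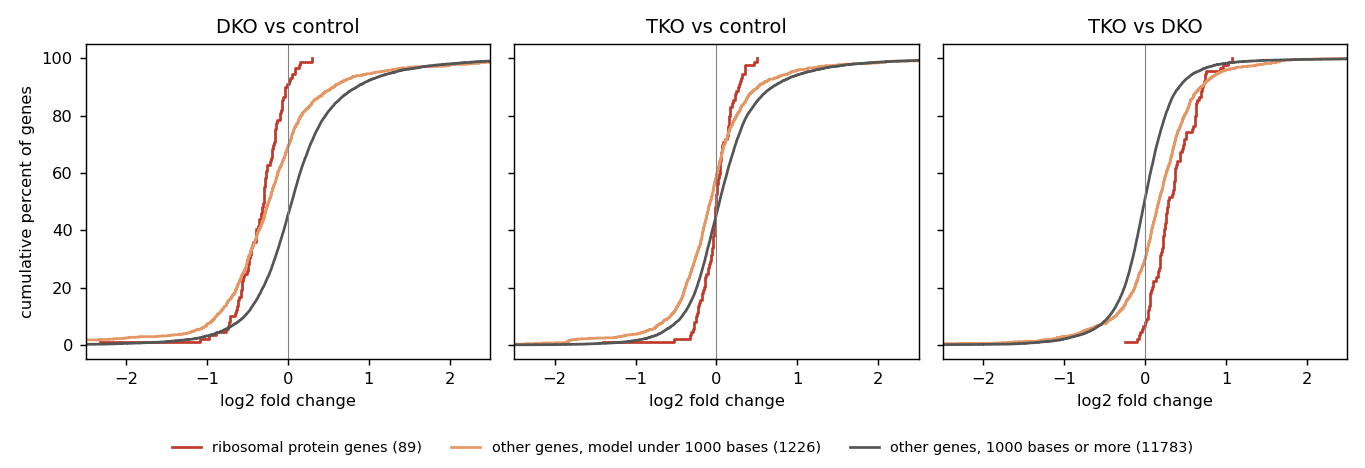
Cumulative percent of genes against log2 fold change (axis limited to ±2.5) in the 3 comparisons, for the 89 ribosomal protein genes, 1226 other genes with a model under 1000 bases and 11783 other genes with longer models. In DKO tumors against controls the short genes lie left of the long ones and the ribosomal protein genes follow the short genes in their lower part, with medians of −0.30, −0.23 and 0.05.

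TKO tumors were set against the same control livers, to see where the members stood when Rb1 was deleted as well. No member passed the test by edgeR, where 0.0504% of all genes tested were called higher and 0.0360% lower. At an unadjusted p under 0.05, 2 members were higher and 2 lower, against 9.94% and 6.33% of all genes tested. DESeq2 called 1 member, Rps4l, lower, where 1.41% of the genes with an adjusted p were called lower. The 4 TKO tumors lay above all controls in 2 members (Rps3 and Rpl15) and below them in 1 (Rps4l), against 4.38% and 3.29% of all genes tested. The median log2 fold change was −0.003, with 42 of 89 members higher and 47 lower. With the total counts as the only scaling, 70 of 89 were higher, while the median over all genes moved to 0.17. The comparisons of DKO and of TKO tumors share the control libraries.

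Rps4l was again the lowest, with a log2 fold change of −1.40 (SE 0.40) and an adjusted p of 0.146 by edgeR and 0.0181 by DESeq2. Rpl10a, a protein of the L1 stalk of the large subunit, stood at 32.3, 45.1, 43.8 and 33.5 CPM in control livers and at 56.9, 69.8, 48.6 and 43.6 CPM in TKO tumors. Its lowest TKO value lay below 2 of the controls, and the log2 fold change was 0.50 (SE 0.17; adjusted p 0.194 by edgeR). Rps3, a protein of the mRNA entry site that also takes part in DNA repair, was at 266, 296, 292 and 272 CPM in control livers, 258, 279, 262 and 275 CPM in DKO tumors and 339, 342, 317 and 301 CPM in TKO tumors. All TKO values of Rps3 lay above all others, but the change was small, a log2 fold change of 0.21 with an adjusted p of 0.439 by edgeR. Rps13 was at −0.52 (adjusted p 0.264 by edgeR), Rps12 at 0.46 (0.444), Rplp1 at 0.35 (0.387), Rps23 at 0.35 (0.265) and Rpl37rt at 0.36 (0.376).

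The comparison of TKO with DKO tumors asks what differed where Rb1 was deleted in addition. The study reported a longer tumor latency in the double knockout mice and more Ki67-positive cells in the triple knockout tumors. Differences of age or tumor state that went with genotype cannot be told apart from the deletion of Rb1. It uses the same DKO libraries as the comparison of DKO tumors with controls, so these comparisons are not independent. Against controls, the members had a median log2 fold change of −0.30 in DKO tumors and −0.003 in TKO tumors. By edgeR no member and no gene at all passed the adjusted threshold, so 0% of all genes tested were called. At an unadjusted p under 0.05, 29 members were higher and none was lower, against 5.16% and 3.84% of all genes tested. In 83 of 89 members (93.3%) the mean was higher in TKO tumors, against 51.2% of all genes tested, and the median log2 fold change was 0.29, against 0.01. Gene length moved with this shift too. Of the 1226 other genes with a model under 1000 bases, 70.0% were higher, with a median of 0.17, and 163 were higher at an unadjusted p under 0.05. Of the 11783 longer ones, 48.9% were higher, with a median of −0.008. In 16 of 89 members (17.98%) the 4 TKO tumors all lay above the 4 DKO tumors, against 2.75% of all genes tested and 7.67% of the other genes with a model under 1000 bases. The opposite order was seen in none of them, against 2.12% of all genes tested. DESeq2 called 1 member, Rps27rt, higher, where 0.171% of the genes with an adjusted p were called higher. With the length and GC offsets the median was 0.19 and 71 of 86 members were higher. The direction held with each of the 12 libraries left out, with medians from 0.25 to 0.36.

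Rps27rt, a retrotransposed copy of Rps27 whose reads cannot be told from those of Rps27, stood at 14.6, 17.1, 19.2 and 20.7 CPM in DKO tumors and at 45.5, 29.99, 31.99 and 31.6 CPM in TKO tumors. Its log2 fold change was 0.96 (SE 0.20), with an adjusted p of 0.281 by edgeR and 0.0122 by DESeq2, and Rps27 itself was at 1.08 (SE 0.27; adjusted p 0.405 by edgeR). In control livers Rps27rt was at 23.6, 39.6, 27.6 and 22.6 CPM, a range that overlapped the TKO tumors. Rps29 was at 1.03 (adjusted p 0.450 by edgeR), Rps18 at 0.73 (0.407), Rpl37rt at 0.72 (0.407), Rps15 at 0.71 (0.425) and Rpl37a at 0.69 (0.399). The lowest values were Rps23rg1 at −0.24 (95% interval −1.24 to 0.75) and Rps24 at −0.10 (−0.37 to 0.17).

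**Figure D5:**
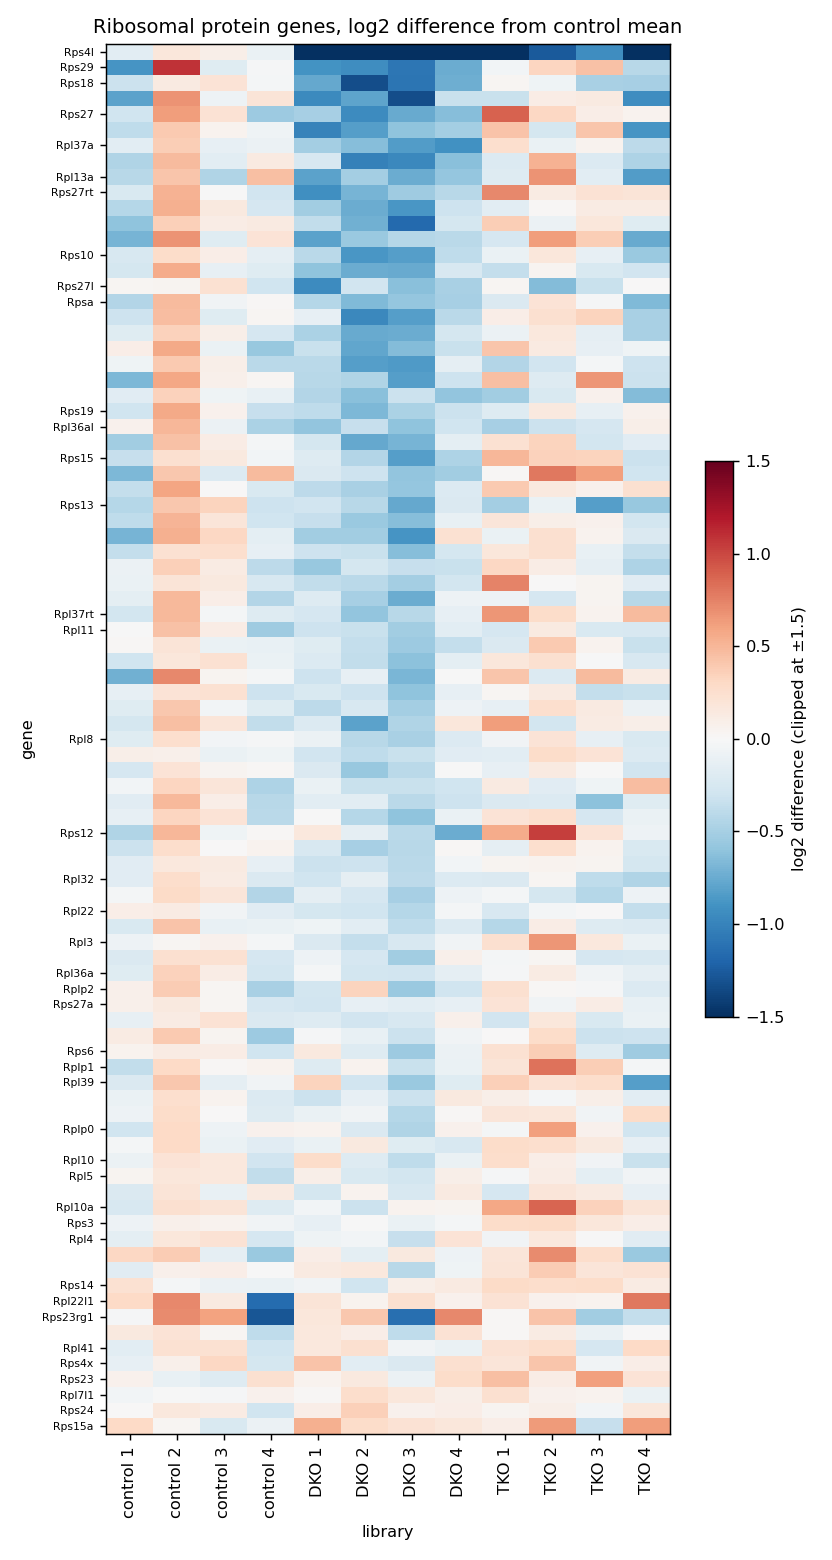
The log2 difference of TMM-scaled CPM from the mean of the 4 control livers, for each of the 89 tested members (rows, ordered by the DKO to control log2 fold change, with names for those chosen by rule) in each library (columns), with colours clipped at ±1.5. Control liver 2 is mostly above and DKO tumor 3 mostly below the control mean, with 66 of 89 members of DKO tumor 3 under the lowest control.

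The control livers spread over a wider range than the distance between the group medians. The median over the members of the log2 difference from the control mean was −0.17, 0.33, 0.07 and −0.18 in control livers 1 to 4, −0.24, −0.33, −0.50 and −0.15 in DKO tumors and 0.04, 0.14, 0.01 and −0.20 in TKO tumors. DKO tumor 4 was higher than control livers 1 and 4, and TKO tumor 4 was lower than both. In DKO tumors 1 to 4, 31, 44, 66 and 21 of the 89 members lay below the lowest control, which are 34.8%, 49.4%, 74.2% and 23.6%, while 23.7% to 26.4% of the other genes did so. In TKO tumors 1 to 4 these were 12, 3, 9 and 32 members, or 13.5%, 3.37%, 10.1% and 36.0%, against 19.8% to 25.03% of the other genes, so TKO tumor 4 had more members below the lowest control than DKO tumors 1 and 4.

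Other genes of the translation machinery followed only in part. Of 30 translation factors and other TOP mRNAs, 2 fell in DKO tumors and none rose (edgeR), against 1.01% and 1.41% of all genes tested, with a median log2 fold change of −0.13 against 0.02, and these were Fau, which encodes the small subunit protein eS30 fused to a ubiquitin-like protein, and Cox7c, a cytochrome c oxidase subunit. At an unadjusted p under 0.05, 7 of the 30 were lower in DKO tumors and none higher, against 11.1% and 12.9% of all genes tested. DESeq2 called 4 of the 30 lower in DKO tumors, against 4.51% of the genes with an adjusted p. In TKO tumors against controls none passed by edgeR, with 3 higher and 2 lower at an unadjusted p under 0.05, against 9.94% and 6.33% of all genes tested, and 2 called lower by DESeq2, against 1.41%. Fau was at 46.7, 82.2, 65.2 and 59.8 CPM in control livers and 33.6, 29.5, 36.8 and 40.1 CPM in DKO tumors, a log2 fold change of −0.86 (SE 0.18) with an adjusted p of 0.0445 by edgeR. Cox7c was at −1.02 (SE 0.20; adjusted p 0.0409 by edgeR). The gene models of Fau and Cox7c were 561 and 540 bases long.

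Of 9 snoRNA host genes, all 9 had a lower mean in DKO tumors, against 48.4% of all genes tested, with a median of −0.50 against 0.02, and 1 of them, Snhg8, passed the test, against 1.01% called lower. Snhg8 was at 2.596, 5.29, 3.73 and 4.69 CPM in control livers, 1.30, 0.791, 1.48 and 1.77 CPM in DKO tumors and 3.50, 3.55, 5.22 and 2.61 CPM in TKO tumors, with a log2 fold change of −1.59 (SE 0.32) and an adjusted p of 0.0425 by edgeR. DESeq2 also called Snhg8 higher in TKO than in DKO tumors, where edgeR gave an adjusted p of 0.281. Gas5, a non-coding host gene with a TOP tract, was at −0.62 (adjusted p 0.379 by edgeR). Of 48 ribosome biogenesis genes none passed the test in any comparison by edgeR, and at an unadjusted p under 0.05, 3 were higher and 2 lower in DKO tumors and 5 were higher and 2 lower in TKO tumors against controls, where 12.9% and 11.1% of all genes tested did so in DKO tumors and 9.94% and 6.33% in TKO tumors. Their median log2 fold change was 0.04 in DKO tumors and 0.02 in TKO tumors against controls, and that of all genes tested was 0.02 in both. DESeq2 called 1 of them, Pno1, lower in TKO tumors, against 1.41% of the genes with an adjusted p.

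Of 22 MYC and mTORC1 regulators none passed the test by edgeR, with 2 higher and 1 lower at an unadjusted p under 0.05 in DKO tumors and 1 higher and 2 lower in TKO tumors against controls, where the shares of all genes tested were those just given. Ddit4, an inhibitor of mTORC1, had a log2 fold change of 1.08 in DKO tumors, with an adjusted p of 0.0708 by edgeR and 0.0151 by DESeq2. Myc was at −0.78 (adjusted p 0.253 by edgeR), Rps6kb1, the S6 kinase, at 0.03 and Eif4ebp1, the translational repressor released by mTORC1, at −0.13. In the same tumors the 4 proliferation markers summed to 17.5 to 76.7 CPM in DKO tumors and 9.51 to 47.8 CPM in TKO tumors against 6.15 to 15.8 CPM in controls, and Mki67 rose in DKO tumors by a log2 fold change of 2.89 with an adjusted p of 0.0425 by edgeR. The ranges of the summed markers of each other cell type overlapped among the groups, though in some lists most genes had means on the same side of controls. Macrophage and Kupffer cell markers summed to 193 to 517 CPM in controls, 63.03 to 439 CPM in DKO tumors and 131 to 580 CPM in TKO tumors, and 5 of 6 had a lower mean in DKO tumors than in controls, with a median log2 fold change of −0.70. Cholangiocyte markers summed to 28.6 to 49.4 CPM, 24.4 to 108 CPM and 31.2 to 54.9 CPM in the same order, and all 4 tested had a higher mean in DKO tumors, with a median of 1.03. Lymphocyte markers, at 20.2 to 92.3 CPM, 13.9 to 202 CPM and 26.9 to 69.0 CPM, had a lower mean in 6 of 7 tested. The ranges of the summed endothelial, stellate and fibroblast and erythroid markers likewise overlapped among the groups. In TKO tumors against controls all 5 endothelial and all 3 erythroid markers had a higher mean, with medians of 0.37 and 0.47. The stellate and fibroblast markers were split, with 3 higher and 3 lower, and none of these passed the test by edgeR. In DKO tumors against controls none of these non-hepatocyte markers passed the test by edgeR, 1 was higher and none lower at an unadjusted p under 0.05, and DESeq2 called that gene, the endothelial Pecam1, higher (log2 fold change 1.24 with an adjusted p of 0.0693 by edgeR and 0.0134 by DESeq2). The part of the cell cycle genes and of the other cell types in the members' values was not tested.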

How the data were processed

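The authors extracted poly(A) RNA from 12 frozen livers and tumors, sequenced 40-base SOLiD reads, aligned them with BWA (mm9) and made gene tables with featureCounts. The table the authors deposited holds raw counts, not normalized, in 26301 Entrez rows. Versions, annotation, strand and the treatment of reads with several places are not given in the sources used here. Entrez identifiers were named from RefSeq of GRCm38.p6 (24191 rows matched). Groups and replicate numbers came from the sample titles, 4 libraries a group. That libraries of a group came from separate mice is the study's wording of 4 livers per condition.

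Counts were compared with edgeR 4.0.16 in R 4.3.3, with TMM, filterByExpr (13882 genes kept), all 12 libraries in one fit with a mean per group, and the quasi-likelihood test. P values were adjusted over all genes by Benjamini-Hochberg, and calls were made under 0.05. The study used DESeq2, run here in version 1.42.0 as an alternative. The members and gene lists were chosen with earlier results of these data known. Members named were all those called, in each comparison the 6 with the lowest p and the 2 highest and 2 lowest log2 fold changes, the 5 highest per kilobase, the 5 with the fewest counts, and members and paralogs fixed by role. The 4 other lists gave the called genes, the 3 lowest p values of each and genes fixed by role, of which 1 is not reported here. Rpl29, Rpl14 and the members in statements on shared windows were chosen after their values were seen. CPM are TMM-scaled. Gene models and coordinates were GENCODE vM1 on the files' build, and each 40-base window of a model was searched in the genome on both strands.

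On simulated counts for the DKO comparison (13703 genes), the fit recovered 43% of changes of log2 1 and 94% of log2 2, with 6 false calls. The changed genes were drawn only from those with higher counts, so members with few counts, such as Rps4l, lie outside this setting. Smaller changes, such as the median of the members, were not simulated. Within groups no pair of libraries agreed within sampling noise, and the closest, control livers 2 and 3, had a chi-square of 19.9 per gene, where noise alone gives about 1, against 62.7 to 369.6 for the other 17 pairs; pairs across groups were not compared. The alternatives were other scalings, filters, fits, thresholds, offsets, a replicate block and each library left out in turn. Added after seeing the data were members without shared windows and members split by unique share. The 78 protein coding members without shared windows had medians of −0.29 in DKO tumors against controls and 0.28 in TKO against DKO tumors. The 44 members below the members' median unique share had medians of −0.44 and 0.43 in the same order. The 42 members at or above it had −0.29 and 0.24.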

Additional observations from a re-analysis of the deposited data

Results flagged for a closer look

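Across 132 groups of 4 libraries, 6 had a library whose gap to the nearest other exceeded Dixon's 95% critical value, where chance alone gives about 6.6. Among the 4 control livers, control liver 2 had the highest Rpl37a, 25.3 CPM. Among the 4 DKO tumors, DKO tumor 2 had the highest Rps24, 68.2 CPM. Among the 4 TKO tumors, tumor 1 had the highest Rps27rt, 45.5 CPM, tumor 2 the highest Rpl11, 27.4 CPM, and tumor 4 the lowest Rps14, 116 CPM, and the lowest Rpl39, 3.21 CPM.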

How the results depend on the processing

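The median log2 fold changes of the members moved by less than the spread between libraries (0.18) under all 25 alternatives in each comparison. That spread is wide beside the medians themselves. With length and GC offsets the median went from −0.30 to −0.16 in DKO tumors against controls and from 0.29 to 0.19 in TKO against DKO tumors. With total counts as the only scaling it went from −0.003 to 0.14 in TKO tumors against controls and from 0.29 to 0.40 in TKO against DKO tumors. Members called in DKO tumors against controls numbered 7 by DESeq2, 0 with the total counts as the only scaling and 10 at an adjusted p of 0.1, against 3, and 0 to 3 with 1 library left out. DESeq2 called 1 member in TKO tumors against controls and 1 in TKO against DKO tumors, where edgeR called 0, and leaving out a library gave 0 in both. With the 20 most counted other rows out of the total, the share of counts in the members changed from −0.049 to 0.023 percentage points in DKO tumors and from 0.059 to 0.126 in TKO tumors, both against controls, and the TMM effective size gave 0.0086 for the latter. Leaving out 1 library gave −0.077 to −0.027 for DKO against control, 0.045 to 0.074 for TKO against control and 0.086 to 0.136 for TKO against DKO tumors. Of the 89 members, 21 changed sign in at least 1 of 21 refits in DKO tumors against controls, 53 in TKO tumors against controls and 22 in TKO against DKO tumors, with log2 fold changes of at most 0.25, 0.22 and 0.24 in size. Among the members named for a low p or an extreme fold change, these were Rps24 with total counts (0.0137) and Rps23rg1 without DKO tumor 4, both in TKO against DKO tumors, where leaving out a library gave −0.51 to 0.000234 for Rps23rg1. Genes called in all numbered 336 in DKO tumors against controls by edgeR, 1491 by DESeq2, 59 with total counts, 759 with the 8 libraries of the comparison and 509 with the replicate block, 0 without control liver 2 or 3, 5 to 7 without control liver 4 or DKO tumor 1, 2 or 4, and 166, 96 and 651 without control liver 1, TKO tumor 1 and TKO tumor 3. Same-numbered libraries correlated between −0.17 and 0.37, over 0.1 in 5 of 12 pairs, so the numbers of the titles were not taken as pairs. The count columns carry other letters and numbers, whose meaning is not given in the sources used here, and a grouping by them was not tested. With the replicate block 3 members were called in DKO tumors against controls and 0 in the other comparisons, and the members' medians were −0.30, −0.0003 and 0.29. Total counts as the only scaling moved the median of all genes to 0.07, 0.17 and 0.11. Members with few unique windows, and those under 10 counts in a library (2 of 89 tested), limit what the depth can show.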
